A study of Mus musculus with 2 samples.

Results

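The Tregs that carried a division signature were examined among the T cells that infiltrate the pancreatic islets of NOD mice, the strain that develops autoimmune diabetes. Both libraries came from NOD mice with a Foxp3-EGFP reporter, which makes Foxp3-expressing cells green. The NOD.Foxp3-EGFP mice were otherwise unmodified (wild type below), and the NOD.Tnfrsf9-/-.Foxp3-EGFP mice also lacked CD137 in the germline, in every cell type (knockout below). Per the study's methods, islet CD8 T cells and GFP+ CD4 Tregs of 6 female mice per strain, aged 9 to 10 weeks, were sorted, combined and loaded as 1 library per strain, so each genotype is 1 sample of pooled animals. No difference between genotypes therefore has a replicate check, and no test was made; the 95% intervals given below cover counting error only and say nothing about variation between mice.

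Because both lineages shared a library, Tregs were recognised from their unique molecular identifiers (UMIs, 1 per captured mRNA molecule). Of the cells in which 200 to 5000 genes were detected and mitochondrial transcripts made up no more than 20% of UMIs, those were taken as Tregs that had no Cd8a or Cd8b1 UMI, at least 1 UMI of Cd4, Foxp3, Il2ra or Ikzf2, and at least 3 of the CD3 genes. CD8 cells, given below for comparison, passed the same limits. They had at least 1 Cd8a or Cd8b1 UMI, at least 3 CD3 UMIs and none of Cd4, Foxp3, Il2ra or Ikzf2. A Treg was called proliferating when Mki67, Top2a, Birc5, Ube2c and Cdk1 together gave at least 3 UMIs (the gate sum). This kept 152 of 1514 wild-type Tregs and 168 of 1401 knockout Tregs, that is 320 of the 2915 Tregs in both libraries. The 1088 wild-type and 992 knockout Tregs with a gate sum of 0 served as the reference. The members were thus chosen by measured UMIs of these 5 genes, so everything that separates them from the reference cells is a description.

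Regulatory T cells restrain other T cells in the islet and are held as a population by homeostatic and antigen-driven division. A dividing lymphocyte first copies its DNA with replication enzymes and newly made histones, then separates the chromosomes with mitotic kinases, spindle proteins and the anaphase-promoting complex. CD137, encoded by Tnfrsf9, is a costimulatory receptor of the TNF receptor superfamily that activated Tregs carry.

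Genes of late cell division share promoter elements: the CCAAT box, read by NF-Y, and the cell cycle homology region TTTGAA, read by complexes that silence the gene in resting cells. Replication genes more often carry E2F-type sites. The 250 bases before the start of a gate gene, a mitotic gene and a replication gene are shown because these genes open the division programme described next (RefSeq, GRCm38.p6, 5′ to 3′ on the gene's strand). Capitals mark, on either strand and without overlap, the CCAAT box, the element TTTGAA and E2F-type sites, searched as TTTCCCGC or as the variant TTTGGCGC.
Cdk1 (minus strand, chr10:69352913-69353162): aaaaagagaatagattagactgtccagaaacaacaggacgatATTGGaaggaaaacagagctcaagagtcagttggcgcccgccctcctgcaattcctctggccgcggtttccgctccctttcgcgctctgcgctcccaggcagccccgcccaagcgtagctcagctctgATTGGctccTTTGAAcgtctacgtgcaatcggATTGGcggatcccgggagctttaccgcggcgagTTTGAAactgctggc
Cdc20 (minus strand, chr4:118437344-118437593): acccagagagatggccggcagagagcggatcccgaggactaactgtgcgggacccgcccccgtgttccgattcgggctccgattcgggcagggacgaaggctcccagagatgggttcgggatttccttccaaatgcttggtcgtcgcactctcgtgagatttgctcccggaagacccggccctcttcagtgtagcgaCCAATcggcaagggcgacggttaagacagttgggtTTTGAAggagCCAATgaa
Mcm5 (plus strand, chr8:75109259-75109508): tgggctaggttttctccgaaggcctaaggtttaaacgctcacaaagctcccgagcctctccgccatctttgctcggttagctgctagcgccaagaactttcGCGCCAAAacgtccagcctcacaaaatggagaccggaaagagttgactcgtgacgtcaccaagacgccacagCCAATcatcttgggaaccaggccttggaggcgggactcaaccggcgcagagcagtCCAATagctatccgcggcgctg

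CCAAT lay in the windows of 4 of the 5 gate genes and in 26 of the 33 mitosis-list genes with a sequence (78.8%), against 37.5% of all 27025 genes with a sequence. TTTGAA lay in 4 of the 5 gate genes and in 11 of the 33 mitosis genes (33.3%), against 18.3% of all genes. The E2F-type letters lay in none of these gate or mitosis windows and in those of 1.51% of all genes. Of 31 replication-list genes only 23 had a sequence, under the 80% needed to describe a list, so the check is void for that list and nothing is compared between replication and mitosis genes. In those 23, CCAAT lay in 15 windows, TTTGAA in 4 and an E2F-type site in 6. A match is a description of letters and not of binding.

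A division marker that was no part of the gate is given next as a description. It belongs to the mitosis list used below, and the comparison cells were chosen for having no gate UMI. Its contrast with them is therefore set by the gate and is no check of the label. Ccna2, the cyclin of DNA replication and G2, stood at 221 counts per 1000000 UMIs (CPM; exact Poisson interval 202 to 242) in wild-type proliferating Tregs and 188 (170 to 207) in knockout ones. The reference Tregs held 2.04 and 1.60 CPM. Ccna2 was detected in 62.5% of the wild-type cells and in 56.5% of the knockout cells, against none of 361 wild-type and 0.733% of 682 knockout CD8 cells with a gate sum of 0, whose median depths were 5095 and 4962 UMIs.

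Proliferating Tregs were also the larger libraries. Their median was 13458 UMIs per cell for the wild type and 12371 for the knockout, against 3834 and 3833 in Tregs with a sum of 0, and their median number of genes was 3622.5 and 3548 against 1754 and 1763. Mitochondrial UMIs were at a median of 1.68% and 1.64%. A cell with more RNA reaches a sum of 3 more easily, so depth is part of the gate. Comparisons between classes below are of CPM summed over cells or of cells thinned to a common depth. The exceptions are shares of cells that held a UMI or marker, which are of unthinned cells unless stated and so depend on depth. The upper limit of 5000 genes cut into these cells as well. It removed 18 wild-type and 15 knockout cells that otherwise passed the Treg rule, and 17 and 14 of those reached the gate.

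**Figure D1:**
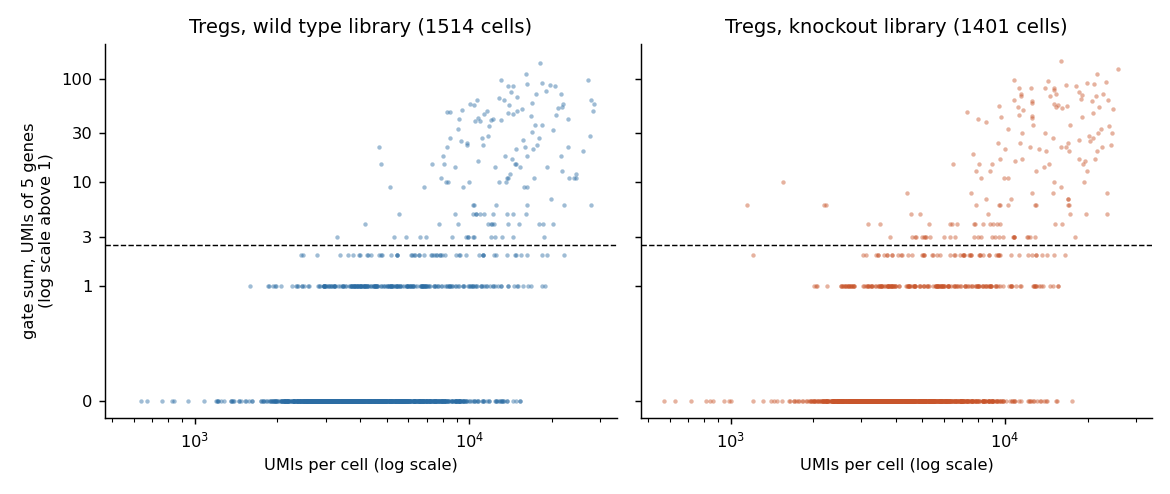
Each point is 1 Treg, with its UMIs on a log x axis and its gate sum on the y axis (log scale above 1), for 1514 wild-type and 1401 knockout Tregs. The dashed horizontal line marks the threshold of 3 gate UMIs. Cells above the line lie further right, with median depths of 13458 and 12371 UMIs against 3834 and 3833 at a sum of 0.

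The gate sum itself had a median of 16.5 in wild-type and 15 in knockout proliferating Tregs and ran up to 141 and 149. Sums of 3 to 9 were found in 51 and 70 cells, sums of 10 to 29 in 48 and 41, and sums of 30 or more in 53 and 57. Just inside the threshold, the 16 wild-type and 28 knockout cells with a sum of 3 had medians of 9902 and 8054.5 UMIs, and 1 cell of each group held Ccna2. Just outside, 52 and 57 cells with a sum of 2 had medians of 7281 and 7052 UMIs and held 4 and 0 Ccna2 UMIs in all. The boundary cells on both sides thus carried little of this cyclin.

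Among the 5 gate genes, the mix differed between genotypes, given here without a reading since these UMIs chose the cells. Mki67, the proliferation antigen, had 426 UMIs in wild-type and 793 in knockout proliferating Tregs. Top2a, topoisomerase II alpha, had 1293 and 1957. Ube2c, the ubiquitin-conjugating enzyme of the anaphase-promoting complex, had 1121 and 675. Birc5, survivin, had 1007 and 933, and Cdk1, the mitotic kinase, had 355 and 286.

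Outside the gate, the replication and mitosis programmes were high in both genotypes. Against Tregs with a sum of 0, 548 of 8626 genes measured in the wild type were over 2-fold higher (6.35%) and 860 over 2-fold lower (9.97%); in the knockout the counts were 585 (6.84%) and 935 (10.9%) of 8554. A gene counted as measured when both groups together held at least 50 UMIs. All 30 measured replication genes and all 37 mitosis genes were over 2-fold higher in both genotypes, which the gate fixes and from which nothing is read. Their median log2 ratios were 3.11 and 3.04 for replication and 5.12 and 5.32 for mitosis, against −0.17 over all genes in each genotype. Rrm2, a subunit of ribonucleotide reductase, stood at 281 and 345 CPM, Mcm5 of the replicative helicase at 156 and 154, and Cdc20, an activator of the anaphase-promoting complex, at 206 and 146. Hmgb2, a chromatin protein, reached 2990 and 3060 CPM from 287 and 329. Nek2, a centrosomal kinase outside the lists, headed the ranking of genes by their smaller ratio in both libraries (7.50, 4.98 to 12.8, and 7.24, 4.72 to 12.6, with 1 UMI in each set of reference cells), followed by E2f8, an E2F repressor, Pbk, a mitotic kinase, and Esco2, a cohesin acetyltransferase.

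The G1 regulators were mixed. Cdk4 (1.45 and 1.54), Ccne1, the cyclin of the G1 to S step (3.50 and 3.25), and Cdkn2c, an inhibitor of Cdk4 and Cdk6 (2.72 and 2.75), were higher in proliferating cells. The D-type cyclin Ccnd3 (−1.07 and −1.44) and the antiproliferative genes Btg1 (−1.56 and −1.67) and Btg2 (−1.39 and −1.37) were lower. Of the 15 measured genes of this list, 5 were over 2-fold higher and 3 over 2-fold lower in each genotype.

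To place the cells along the division, each was thinned to 4000 UMIs and its UMIs of the replication and mitosis lists were counted. Mitosis UMIs outnumbered replication UMIs in 99 of 151 wild-type cells (65.6%, Clopper-Pearson interval 57.4 to 73.1) and 97 of 161 knockout cells (60.2%, 52.2 to 67.9). The difference, knockout minus wild type, was −5.31 percentage points (Newcombe interval −15.8 to 5.38), so a difference was not detectable at these cell numbers. Replication UMIs led in 49 and 61 cells, and 3 cells in each group were tied. Thinning left out 1 wild-type and 7 knockout cells. The median cell held 12 and 16 replication UMIs and 26 and 23 mitosis UMIs, against 2 of each in Tregs with a sum of 0.

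**Figure D2:**
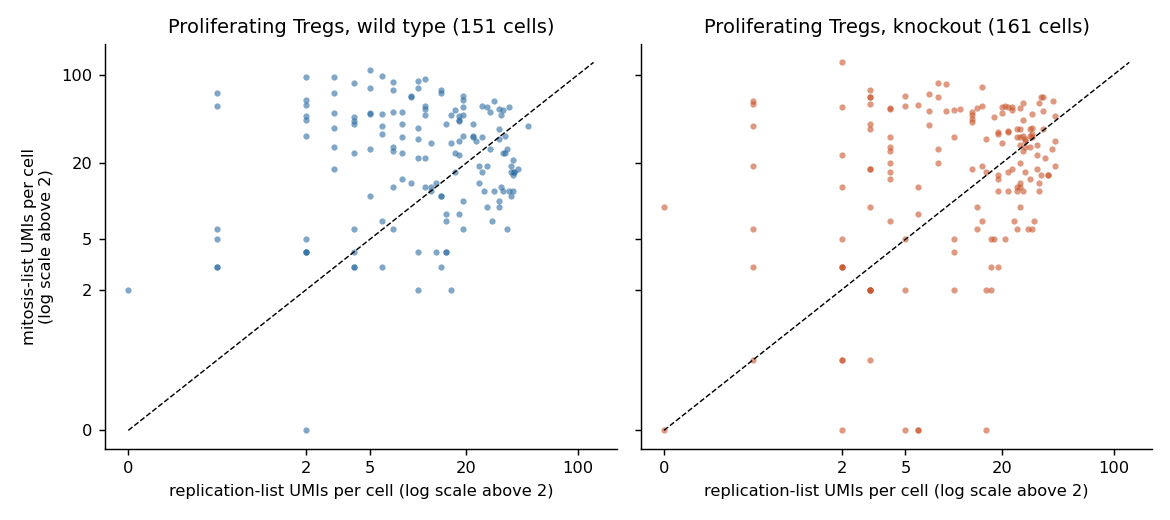
Each point is a proliferating Treg thinned to 4000 UMIs, with its replication-list UMIs on the x axis and its mitosis-list UMIs on the y axis (log scales above 2), for 151 wild-type and 161 knockout cells; cells above the dashed diagonal held more mitosis UMIs. Both genotypes spread along both axes, with 65.6% and 60.2% of cells above the diagonal.

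Within the mitosis list, the knockout was lower for some late genes and higher for others. Cdc20 was lower in the knockout by a log2 ratio of −0.49 (interval −0.71 to −0.28), with Ccnb1 at −0.36, Ccnb2, the other B-type cyclin, at −0.39 and Aurka, an Aurora kinase of the spindle poles, at −0.46. Cenpe, a kinetochore motor, was at 0.56, Hmmr, a spindle-associated hyaluronan receptor, at 0.53 and Nuf2, a kinetochore protein, at 0.51. Over the 37 genes the median was 0.00, with 5 intervals above 0 and 10 below it. The 31 replication genes had a median of 0.19, with 11 intervals above 0 and none below; Clspn, a replication checkpoint adaptor, was at 0.55 (0.24 to 0.86), while Mcm5 was at −0.02. None of these 68 genes differed by more than 2-fold between genotypes. Counting intervals are narrow for abundant genes. In the same comparison the intervals of 46 of 94 ribosomal protein genes lay below 0 and 7 above it, at a median of −0.06. The share of all genes with an interval clear of 0 was not counted. Counts of intervals, here and below, therefore describe each list and are not read as an effect on it.

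The share of Tregs in the gate was 10.0% in the wild type (8.57 to 11.7) and 12% in the knockout (10.3 to 13.8). The difference, knockout minus wild type, was 1.95 percentage points (−0.32 to 4.25). At a sum of 10 or more it was 0.32 points (−1.51 to 2.18). With every Treg thinned to 2000 UMIs, 15.6% and 18.2% kept at least 1 gate UMI, a difference of 2.61 points (−0.15 to 5.39) that left out 54 and 35 shallower Tregs. All 3 intervals spanned 0. In CD8 cells of the same libraries the share in the gate ran the other way, 64 of 516 in the wild type (12.4%, 9.68 to 15.6) against 42 of 858 in the knockout (4.90%, 3.55 to 6.56), a difference of −7.51 points (−10.9 to −4.45). These are shares of the CD8 cells that the rule kept. Of 371 wild-type and 302 knockout cells of any lineage in the gate, 153 and 91 held UMIs of both lineages. Such cells were counted in neither class, so the share of all dividing CD8 cells is not known.

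Treg identity genes were at lower CPM in the gated cells. The Treg rule used Ikzf2, Il2ra, Foxp3 and Cd4, so the detection of these genes is fixed in part by selection and their levels are a description. Ikzf2, which encodes Helios, stood at 1393 and 1693 CPM against 2043 and 2163 at a sum of 0. Il2ra, the high-affinity IL-2 receptor chain CD25, stood at 120 and 134 CPM against 163 and 212. Foxp3, the lineage factor, was sparse in these 3′ libraries, with 38 and 41 UMIs in all, at 17.8 CPM (12.6 to 24.4) and 18.9 (13.5 to 25.6) against 29.8 and 51.0. None of the proliferating Tregs passed the Treg rule on Cd4 alone, against 23 and 28 of the reference cells; deeper cells have more chances to show one of the other 3 genes. The median over the 9 measured identity genes was −0.67 in wild-type and −0.53 in knockout cells, with 9 and 8 intervals below 0.

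The naive, or central, programme was at low levels in proliferating Tregs of both genotypes. The median log2 ratio of its 10 genes was −0.75 in wild-type and −1.24 in knockout cells, with 4 and 6 genes over 2-fold lower and none over 2-fold higher. Il7r, the IL-7 receptor of resting cells, stood at 4.68 CPM (2.24 to 8.60) and 11.5 (7.45 to 17.0) in proliferating cells against 65.0 and 70.7 at a sum of 0. Bach2, a repressor that keeps Tregs resting, stood at 29 and 40.1 CPM against 179 and 273. Tcf7 (−0.88 and −1.42) and Foxp1 (−1.60 and −1.62), transcription factors of quiescent T cells, were lower as well. Against only those reference cells with at least 5000 UMIs, the knockout median was −0.87.

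Memory-like genes were mostly higher. Lgals1, galectin 1, stood at 2458 and 2605 CPM in proliferating Tregs against 1062 and 961 in reference cells. Crip1, a small LIM protein (1.16 and 1.32), and Vim, vimentin (1.01 and 1.02), were also over 2-fold higher in both genotypes. S100a4, a calcium-binding protein, was slightly lower (−0.29 and −0.15), and Itgb1, the integrin beta 1 chain, was clearly so, at 103 CPM against 277 in the wild type (−1.43) and 186 against 307 in the knockout (−0.72). The list had a median of 0.48 and 0.67 over 7 genes.

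Suppressive and activation genes did not follow the division programme as a list. Their median was −0.61 in the wild type, with 2 of 12 genes over 2-fold lower, and −0.11 in the knockout, with none. Icos, a costimulatory receptor, was level at 345 CPM against 348 and 353 against 366. Ctla4, the inhibitory receptor central to Treg function, stood at 1112 against 1774 and 1038 against 1494. Lag3, another inhibitory receptor, stood at 477 against 700 for the wild type and 383 against 410 for the knockout. With each cell weighted equally, the knockout values were 0.53 for Lag3 and 0.20 for the list. Over 11 alternatives the knockout value of Lag3 ran from −0.55 to 0.53. Gzmb, granzyme B, was higher in proliferating cells of the wild type (123 against 75.4 CPM, log2 ratio 0.70, 0.47 to 0.93) and lower in those of the knockout (67.7 against 82.8, −0.29, −0.58 to −0.01).

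The balance of the suppressive and naive lists was then read in single cells thinned to 2000 UMIs. Suppressive UMIs outnumbered naive UMIs in 84.2% of wild-type proliferating Tregs (77.4 to 89.6) against 72.5% of reference Tregs. In the knockout the shares were 80.7% (73.9 to 86.4) and 58.9%. The mean number of naive UMIs was 1.11 and 1.22 in proliferating against 2.64 and 3.52 in reference cells, whereas that of suppressive UMIs was 6.74 and 6.43 against 8.47 and 6.47. The median number of suppressive UMIs was 6 in both classes of the wild type, and 5 in proliferating against 4 in reference cells of the knockout. The naive mean was thus lower in proliferating cells of both genotypes, whereas the suppressive mean was not higher. Per cell, memory-like UMIs averaged 18 and 18.7 against 10.5 and 9.94.

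Signalling lists were low. Interferon-stimulated genes had a median of −1.27 in wild-type and −1.05 in knockout cells, with 7 and 5 of 10 genes over 2-fold lower; Ifit1, an antiviral effector, was at −2.94 and −1.68. IL-2 pathway genes, from receptor chains to feedback inhibitors, had medians of −0.86 and −0.98. The feedback inhibitors Socs1 (−1.68 and −1.44) and Socs3 (−1.58 and −1.72) were over 2-fold lower. The TNF receptor list, of superfamily members and genes of their signalling, had medians of −0.69 and −0.56, with Tnfrsf25, death receptor 3, at −2.48 and −2.30. Genes of a recently activated or follicular-regulatory (Tfr-like) state, read as 1 list, had medians of −0.82 and −0.79. Among genes outside the lists, Kdm5b, a histone demethylase (−2.96 and −3.01), St8sia6, a sialyltransferase (−3.46 and −3.87), and Tnfsf8, the CD30 ligand (−2.66 and −5.14), were among the 10 lowest common to both genotypes.

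Survival and energy genes completed the picture. Bcl2, the antiapoptotic protein, stood at 40.7 CPM (32.6 to 50.2) in wild-type proliferating Tregs against 114, and at 24.4 (18.3 to 31.9) in knockout ones against 175. Against reference cells of at least 5000 UMIs its log2 ratios were −0.80 and −2.07. Bbc3, the proapoptotic protein Puma, was at −1.57 and −1.58, whereas Bak1, another proapoptotic member of the family, was at 0.92 and 0.97. Glycolysis genes had medians of 0.37 and 0.35 over 16 genes, with Gapdh at 1.07 and 1.35 and Tpi1, triosephosphate isomerase, at 1.25 and 1.32. The 84 oxidative phosphorylation genes had medians of 0.48 and 0.54, and the 94 ribosomal protein genes of 0.05 and 0.07.

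**Figure D3:**
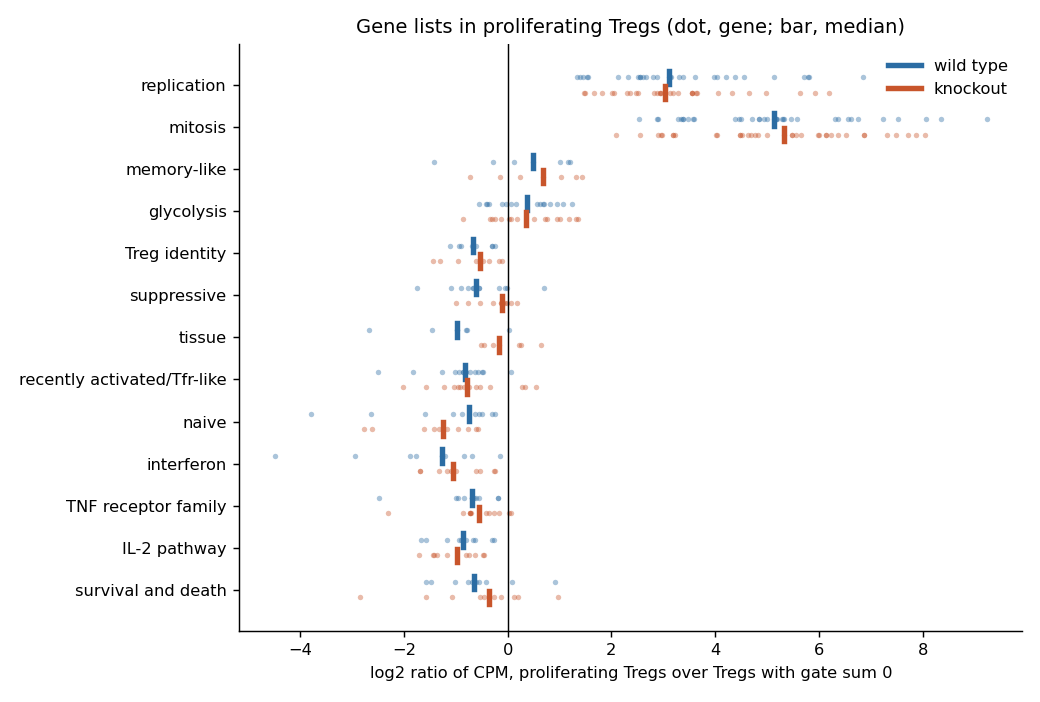
Each dot is a gene and each bar the list median of the log2 ratio of CPM in proliferating Tregs over Tregs with a gate sum of 0, for 13 lists in the wild type and the knockout. The replication and mitosis lists lie far above 0 (medians of 3.04 to 5.32), the memory-like list above it, and the naive and interferon lists below it (−0.75 to −1.27).

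Many of these offsets were shared with dividing CD8 cells of the same libraries. There the naive list was at −3.14 in wild-type and −2.44 in knockout cells, the memory-like list at 1.12 and 1.80 and the interferon list at −1.66 and −0.75. The naive list of CD8 cells was over 2-fold lower in all 10 genes in both genotypes. Over all genes measured in these CD8 comparisons, 560 of 6007 in the wild type and 771 of 7143 in the knockout were over 2-fold lower. In Tregs with a gate sum of 1 or 2 the naive list was at −0.24 and −0.53 and the memory-like list at 0.34 and 0.47, between the reference and the proliferating cells.

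Inside the gate, the knockout was then set against the wild type. These are the same proliferating cells as above, so the values are given beside the earlier ones and not as separate evidence. Of 7352 genes measured, 59 were over 2-fold higher in the knockout (0.803%) and 26 over 2-fold lower (0.354%), and the median of all genes was 0.04. Most lists lay near that value: naive 0.17, memory-like 0.08, recently activated or Tfr-like 0.19 and interferon 0.03. So did the IL-2 pathway at 0.00, survival at 0.10 and glycolysis at −0.05. Treg identity was at −0.16 and the TNF receptor list, which includes Tnfrsf9 itself, at −0.17. The tissue-Treg list stood higher, at a median of 0.56, with 3 of its 7 genes over 2-fold higher and 5 intervals above 0. In Tregs with a sum of 0 its median was 0.04.

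The tissue-Treg genes are those of Tregs that reside and repair in organs. Areg, amphiregulin, the epidermal growth factor family ligand of tissue repair, stood at 22.4 CPM (16.5 to 29.8; 48 UMIs) in wild-type proliferating Tregs and 55.7 (46.2 to 66.6; 121 UMIs) in knockout ones, a log2 ratio of 1.31 (0.82 to 1.83). At a sum of 0 the order was the reverse, 61.8 CPM in wild-type and 35.7 in knockout cells (−0.79). Areg was thus lower in proliferating than in reference cells of the wild type (−1.46) and higher in those of the knockout (0.64, 0.29 to 0.99). With a gate sum of 10 or more, the knockout offset was −0.07 and the genotype ratio 0.79.

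Il1rl1, the receptor of the alarmin IL-33, had 6 UMIs in wild-type and 47 in knockout proliferating Tregs, 2.81 (1.03 to 6.11) against 21.6 CPM (15.9 to 28.8), a log2 ratio of 2.95 (1.72 to 4.46). These UMIs came from 4 and 19 cells. Klrg1, an inhibitory receptor of terminally differentiated Tregs, stood at 12.2 and 32.7 CPM (1.43, 0.76 to 2.13), from 9 and 16 cells; with no upper limit on genes per cell the ratio was 0.56. Rora, a nuclear receptor of tissue Tregs, was at 0.56 (0.30 to 0.83), whereas Batf, a transcription factor of effector Tregs, was at −0.31 (−0.46 to −0.16). Rora was also higher in the knockout in proliferating CD8 cells, at 1.07 (0.58 to 1.58), but at −0.60 in CD8 cells with a sum of 0.

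Il10, the gene of the inhibitory cytokine, showed the same order. It stood at 38.3 CPM (30.5 to 47.6; 82 UMIs) in wild-type and 86.5 (74.6 to 99.8; 188 UMIs) in knockout proliferating Tregs, a log2 ratio of 1.17 (0.79 to 1.57). At a sum of 0 the wild type was the higher, at 129 against 94.5 CPM (−0.45, −0.63 to −0.27). Wild-type proliferating Tregs thus held less Il10 than their reference cells (−1.75). In the knockout the offset was −0.13 (−0.38 to 0.13). It ran from −0.67 to 0.34 over 11 alternatives, the highest with each cell weighted equally. The genotype ratio differed by 1.62 between proliferating and reference cells (1.21 to 2.04).

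For Il10, 23.0% of wild-type and 29.8% of knockout proliferating Tregs held a UMI, and for Areg 20.4% and 22.6%. Thinned to 4000 UMIs, the Il10 shares were 13.2% (8.28 to 19.7) and 19.9% (14.0 to 26.9). Those of Areg were 8.61% (4.66 to 14.3) and 12.4% (7.76 to 18.5), so the intervals of the genotypes overlapped for both genes. Reference Tregs thinned alike held Il10 in 21.8% and 16.3% and Areg in 8.84% and 7.28%. Without thinning, CD8 cells with a gate sum of 0 gave a background of 2.49% and 1.17% for Il10 and of 0.277% and 0.147% for Areg. Their median depths were only 5095 and 4962 UMIs. In proliferating CD8 cells, with medians of 12621 and 12084 UMIs, 12.5% and 0% held Il10 and 0% and 2.38% held Areg. A few proliferating Tregs held much of the signal: the 3 richest cells gave 20.7% and 22.3% of the Il10 UMIs, 25% and 33.1% of the Areg UMIs, and 83.3% and 44.7% of the Il1rl1 UMIs. For Klrg1 they gave 76.9% and 49.3%. The genotype ratio therefore weighs a minority of cells in each library.

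Other suppressive genes lay on both sides of 0. Ccr8, a chemokine receptor of tissue and tumour Tregs, had 18 UMIs in wild-type and 37 in knockout proliferating Tregs (1.02, 0.17 to 1.92), with −0.14 at a sum of 0. Gzmb was lower in knockout proliferating Tregs (−0.86, −1.16 to −0.56) and close to even at a sum of 0 (0.13). It too was concentrated, with 46.9% and 33.3% of its UMIs in 3 cells of each library. Itgae, the integrin chain CD103, was at −0.66 (−0.91 to −0.41) and Lag3 at −0.32 (−0.45 to −0.19), both also lower at a sum of 0 (−0.44 and −0.77). Tigit, an inhibitory receptor, was at 0.52 (0.09 to 0.95) and Ctla4 at −0.10. Over the 12 suppressive genes the median was −0.21, with 3 intervals above 0 and 7 below.

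Itgb1 was the memory-like gene that differed most between genotypes in the gate, at 103 CPM (89.7 to 117) for the wild type and 186 (168 to 205) for the knockout, a log2 ratio of 0.85 (0.61 to 1.10). At a sum of 0 it was at 0.15. Its UMIs in the proliferating Tregs were spread over 99 and 108 cells. Itgb1 was also higher in the knockout in proliferating CD8 cells, at 0.44 (0.19 to 0.69), but at −0.60 in CD8 cells with a sum of 0. Pdcd1, the inhibitory receptor PD-1, was lower in proliferating than in reference cells of the wild type (85.1 against 120 CPM) and higher in those of the knockout (111 against 88.5).

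Naive genes had a median genotype ratio of 0.17 in proliferating and 0.51 in reference Tregs, a difference that was not tested and that its genes did not share. Klf2, the factor of T cell recirculation, was at 0.17 against 0.86 at a sum of 0. S1pr1, the receptor for egress into lymph, was at 0.71 (0.34 to 1.09) against 1.03. Foxp1 was at 0.51 and 0.53 in the classes. Il7r was at 1.30 in the gate (0.19 to 2.52, on 10 and 25 UMIs) and at 0.12 outside it. Ccr7, the lymph node homing chemokine receptor, was lower in the knockout, at 41.1 CPM in wild-type and 23.9 in knockout cells (−0.78, −1.30 to −0.27).

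Bcl2 also changed order with the class. It was higher in the knockout at a sum of 0 (0.62, 0.46 to 0.78) and lower in the gate (−0.74, −1.26 to −0.23), so the offset between proliferating and reference cells was −1.48 in wild-type and −2.84 in knockout cells. Cdkn1b, which encodes the Cdk2 inhibitor p27, was higher in the knockout in both classes, at 22.9 CPM against 55.7 in the gate (1.28, 0.79 to 1.79) and with a ratio of 1.10 at a sum of 0.

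**Figure D4:**
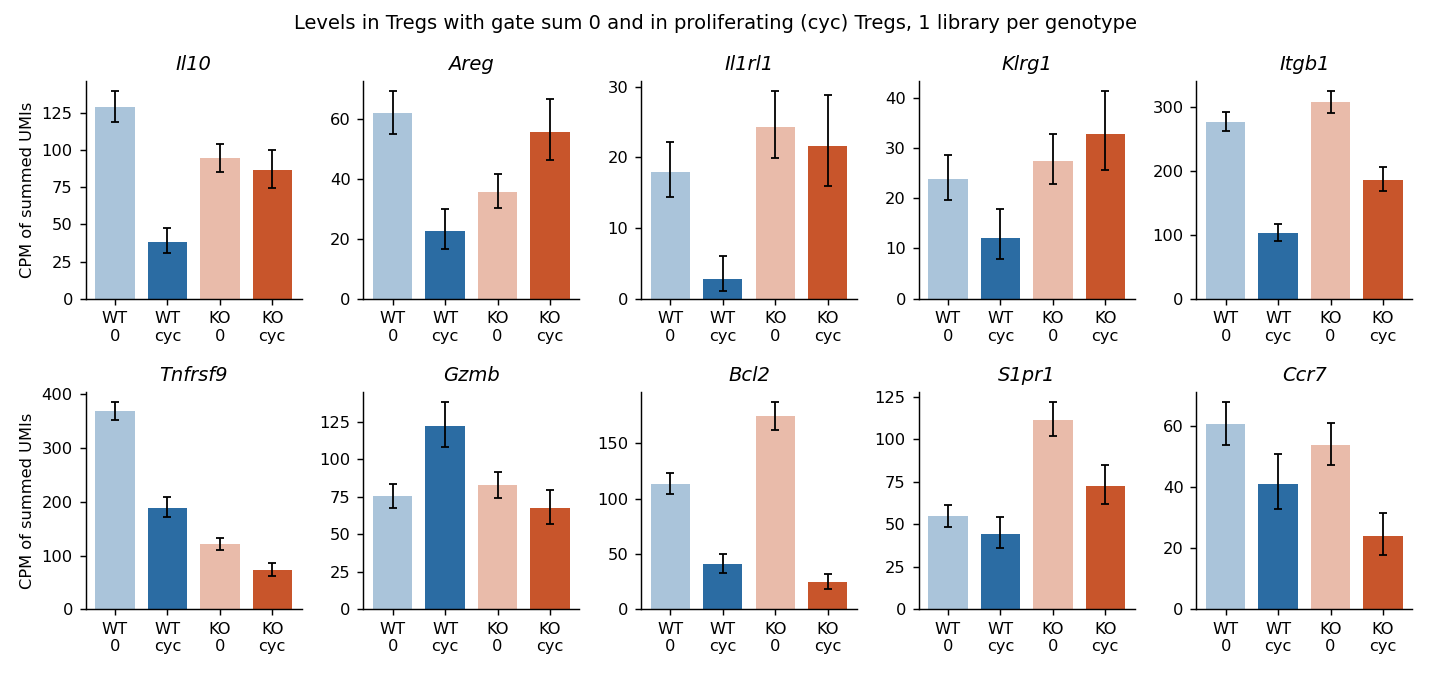
Bars give CPM with exact Poisson intervals for 10 genes in wild-type and knockout Tregs with a gate sum of 0 and in proliferating Tregs. Il10, Areg, Il1rl1, Klrg1 and Itgb1 stand higher in knockout than in wild-type proliferating cells (log2 ratios of 0.85 to 2.95), and Tnfrsf9, Gzmb, Bcl2 and Ccr7 lower (−0.74 to −1.36).

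The same genes were read separately in cells with more replication UMIs (49 wild-type and 61 knockout cells) and in cells with more mitosis UMIs (99 and 97), a split chosen after their values were seen. Areg was higher in the knockout in both (1.42, 0.62 to 2.30, and 1.05, 0.39 to 1.74). Il10 was at 1.90 (1.25 to 2.60) in replication-leaning and 0.51 (−0.02 to 1.05) in mitosis-leaning cells. Itgb1 was even in replication-leaning cells (−0.04, −0.50 to 0.42) and at 1.31 (1.01 to 1.61) in mitosis-leaning ones, and Gzmb was at 0.27 (−0.36 to 0.92) and −1.15 (−1.52 to −0.80). In these pooled counts the Il10 ratio was the larger in replication-leaning cells, and those of Itgb1 and Gzmb lay further from 0 in mitosis-leaning cells. The difference between the 2 sides was not tested. On the replication side Il10 had 24 wild-type and 108 knockout UMIs. For Gzmb, 46.9% of the wild-type UMIs in the gate lay in 3 cells.

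Tnfrsf9 itself stood at 189 CPM (171 to 209; 405 UMIs) in wild-type and 73.7 (62.7 to 86.0; 160 UMIs) in knockout proliferating Tregs, a log2 ratio of −1.36 (−1.64 to −1.09). It was detected in 70.4% (62.5 to 77.5) and 41.7% (34.1 to 49.5) of these cells, against 12.2% and 4.99% of CD8 cells with a sum of 0. Those CD8 cells were shallower, and 45.3% and 31.0% of proliferating CD8 cells held a Tnfrsf9 UMI. In Tregs with a sum of 0 the ratio was −1.60 (−1.74 to −1.46), on levels of 368 and 121 CPM. The site of the deletion is not given in the sources used here, and 3′ reads can come from a transcript whose deleted part lies elsewhere, so these residual UMIs check neither the allele nor the labels. Tnfrsf9 was lower in proliferating than in reference Tregs of both genotypes (−0.96 and −0.72).

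Chemokine genes gave other offsets. Ccl5 stood at 279 CPM (257 to 302) in wild-type and 106 (92.6 to 120) in knockout proliferating Tregs (−1.40, −1.62 to −1.18), and it was also lower in the knockout at a sum of 0 (−1.0) and in proliferating CD8 cells (−1.29). Gzmk, granzyme K, followed it (−1.75, −2.51 to −1.05, and −1.16 at a sum of 0). Ccl4, an inflammatory chemokine, was higher in the gate (1.38, 1.12 to 1.65) and lower at a sum of 0 (−0.71), but 47.9% and 51.8% of its UMIs lay in 3 cells of each library, and the ratio was 0.61 when cells were gated after thinning. Ly6a, the interferon-inducible Sca-1, stood at 1738 and 1096 CPM (−0.67), with −1.32 at a sum of 0. Slfn9, a Schlafen family member, was higher in the knockout at 1.93 (1.12 to 2.82), with 1.43 at a sum of 0. Marcksl1, an actin-regulating substrate of protein kinase C, was lower at −1.07 in the gate and −1.08 outside it.

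The 2 genes with the highest ratios by the fixed ranking encode linker histones, which bind DNA between nucleosomes. Hist1h1b had 126 UMIs in wild-type and 743 in knockout proliferating Tregs, 58.9 (49.1 to 70.1) against 342 CPM (318 to 368), a log2 ratio of 2.54 (2.26 to 2.82). It was found in 57 of 152 and 80 of 168 cells. Hist1h1e stood at 63.1 (52.9 to 74.7) and 265 CPM (244 to 287), a ratio of 2.07 (1.80 to 2.35), and the core histone gene Hist1h2ap was at 0.98 (0.78 to 1.19).

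The whole histone family was therefore laid out, a choice made after these values were seen. Of 67 clustered histone genes, 26 were measured in the gate, with a median of 0.51, 23 of them above 0, and 8 intervals above 0 and none below. The 8 measured variant histones, which are made outside the DNA replication phase too, had a median of −0.17, with H2afz at 0.04 and H2afx at −0.38. Other linker histone genes did not share the size of the first 2. Hist1h1c was at 0.78 (0.40 to 1.16) and Hist1h1d at 0.60 (−0.15 to 1.37). The variant linker histone H1f0 was lower in the knockout, at −0.52 (−0.78 to −0.26). Clustered histone mRNAs mostly end without a poly(A) tail, and the libraries were primed on poly(A), so their counts are a small and uneven part of their transcripts.

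The offset of Hist1h1b and Hist1h1e was also present in CD8 cells and on both sides of the phase split. Hist1h1b was at 2.56 (2.03 to 3.12) and Hist1h1e at 2.58 (2.0 to 3.21) in proliferating CD8 cells of the same libraries. There Hist1h1c was at 1.08 (0.32 to 1.86), and the intervals of Hist1h1d and H1f0 spanned 0. Among proliferating Tregs, Hist1h1b was at 2.27 (1.77 to 2.81) in replication-leaning and 2.65 (2.32 to 2.99) in mitosis-leaning cells. Hist1h2ap was at 0.41 (−0.01 to 0.83) and 1.21 (0.98 to 1.45), so the interval of this core histone gene spanned 0 on the replication side. Hist1h1e was at 1.09 (0.79 to 1.40) even in Tregs with a sum of 0. With 1 library per genotype, a difference between the strains and a difference between the library preparations cannot be told apart.

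**Figure D5:**
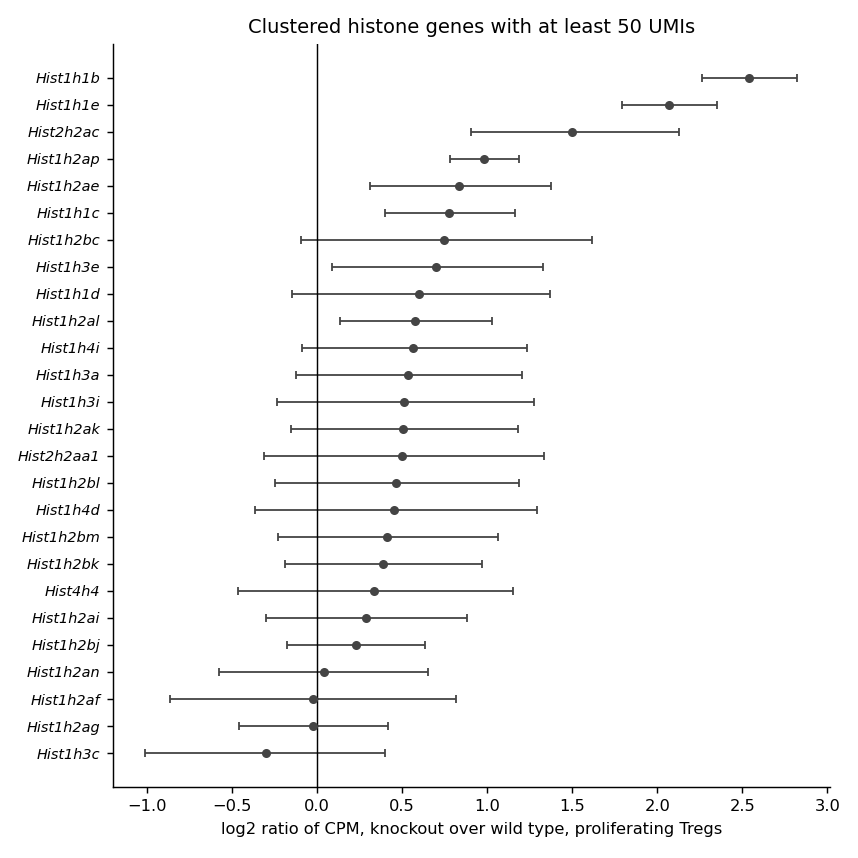
Points give the log2 ratio of CPM, knockout over wild type, in proliferating Tregs for the 26 clustered histone genes with at least 50 UMIs, with 95% intervals for counting error. The points are above 0 for 23 genes, led by Hist1h1b at 2.54 and Hist1h1e at 2.07.

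Markers of other cells were few. At least 2 genes of a foreign list were found in 13 wild-type (8.55%) and 12 knockout (7.14%) proliferating Tregs, against 3.95% and 4.44% of the shallower reference cells. These were mostly myeloid (8 cells in each genotype), with a summed level of 119 and 82.9 CPM that lay largely in Cd74, and with Csf1r, the macrophage colony-stimulating factor receptor, at 0. Acinar genes marked 4 and 3 cells. No cell held 2 B cell or 2 NK cell genes, and all 4 erythroid genes were at 0. Cells holding UMIs of both lineages were kept out by the Treg rule: of 371 wild-type and 302 knockout cells at a gate sum of 3 or more, 153 and 91 were such cells. The libraries also shared 16 barcodes, 1 of them a proliferating Treg in each library. Leaving out the shared barcodes moved no value of a main result or named gene past its limit. The part of doublets in the values above was not tested.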

How the data were processed

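The deposited matrices hold UMI counts per gene and cell that the authors made with Cell Ranger 7.0.0 on mm10 from 3′ libraries; gene names came from the same files. They held 2804 wild-type and 2991 knockout barcodes, with 19904506 and 19639995 UMIs in all (2714 and 2915 cells kept). The proliferating Tregs held 2138708 and 2172215 UMIs. Counts were summed over the cells of a class in Python 3.11.15 (numpy 2.4.6, pandas 2.3.3, scipy 1.17.1) and set against the class total as CPM. Log2 ratios carry exact conditional intervals, levels exact Poisson intervals, shares Clopper-Pearson intervals and differences of shares Newcombe intervals, all at 95% and for counting error only, since PCR and capture are not counted. A ratio with a count of 0 took 0.5 in its place. Genes needed 50 UMIs over both classes, and gate and Treg-rule genes stayed out of the counts over 2-fold. With 1 library per genotype no model was fitted. Scripts were tested on simulated data.

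List genes could be named. Beyond the lists, the ranking took the 10 highest and 10 lowest genes by the smaller ratio of both libraries (proliferating against sum 0) and by the interval bound nearest 0 (knockout against wild type), leaving out ribosomal, mitochondrial and T cell receptor segment genes. The members and lists were chosen with earlier results of these data known. No doublet caller was run. Alternatives covered the gate, the cell filters, the scaling (edgeR 4.0.16 TMM factors), cell weights and the reference cells. Some genes of the lists are not reported here by name.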

Additional observations from a re-analysis of the deposited data

Results flagged for a closer look

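In the Treg lists, 4 genes had log2 ratios of proliferating over reference Tregs that lay on opposite sides of 0 in the genotypes, beyond both counting intervals. Areg was at −1.46 in wild-type and 0.64 in knockout Tregs, and Gzmb at 0.70 and −0.29. Pdcd1 was at −0.49 and 0.33. Psmb8, an immunoproteasome subunit, was at −0.11 and 0.14. Each genotype is 1 library, so these differences were not tested.

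Outside the cells analysed, 17 wild-type and 14 knockout cells with more than 5000 genes passed the Treg rule and reached a gate sum of 3, while none with that many genes and the Treg rule had a sum of 0. The limit on genes therefore took cells mostly from the proliferating class. With no upper limit, the Klrg1 ratio of knockout over wild type was 0.56 in place of 1.43.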

How the results depend on the processing

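No value of a called result changed sign under any alternative run, and of the values of the main results 160 stayed within their limits and 22 did not. With the gate set after thinning every Treg to 2000 UMIs, the proliferating shares were 15.6% and 18.2%, 484 (wild type) and 364 (knockout) genes were over 2-fold lower than in reference cells, and the knockout naive median was −0.90. With a gate sum of 10 or more, the shares were 6.67% and 7.0% and the knockout suppressive median −0.42. With TMM factors, 43 genes were over 2-fold lower in the knockout inside the gate. With each cell weighted equally, the knockout suppressive median was 0.20, 108 genes were over 2-fold higher in the knockout and Tnfrsf9 was at −0.96. Against reference cells of at least 5000 UMIs, 341 and 396 genes were over 2-fold lower and the knockout naive median was −0.87. With at least 200 UMIs per gene, 263 and 286 genes were higher and 356 and 403 lower in proliferating cells, and 7 were higher and 4 lower in the knockout, since fewer genes were counted. In replication-leaning cells, a split added after seeing the data, Tnfrsf9 was at −2.10. Apart from the 200-UMI minimum, the cause of these moves was not tested. Of the values of named genes, 451 stayed within their limits and 110 did not. Also added after seeing the data were leaving out the 3 richest cells of each gene, after which Il1rl1 was at 4.67 and Klrg1 at 2.56, and leaving out the shared barcodes. Without the richest cells only 1 wild-type and 26 knockout Il1rl1 UMIs were left, and 6 and 36 Klrg1 UMIs. Values under 2-fold that crossed 0 were the knockout offsets from reference cells of Areg, Icos, Il10, Lag3 and the suppressive list, the wild-type offset of Icos, the mitosis-leaning share difference (0.01 at a gate sum of 10 or more) and, in replication-leaning cells, the genotype ratios of Cdc20, Gzmb and Itgb1. No paired analysis was possible because each genotype is 1 library. Depth limits genes with few UMIs in the gate, such as Foxp3, Il7r, Il1rl1, Klrg1, Ccr8, St8sia6 and Tnfsf8.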
